A study of Mus musculus with 265 samples.

Results

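DNA replication genes were followed in single-cell ATAC-seq (scATAC-seq) of mouse pre-B cells, untreated or 24 hours into activation of an inducible form of Ikaros. The set comprised 44 protein-coding genes of the replication machinery, and a region of the chromatin matrix was counted to a gene when its midpoint lay closest to that gene's annotated start site, at most 50 kb away. By this rule 46 of the 20103 regions belonged to 33 of the 44 genes. Of these, 35 of 8786 promoter regions (midpoint within 1 kb of the start site) belonged to 30 genes, and 11 of 7973 distal regions (farther than 1 kb) belonged to 6 genes. No member passed the test for a change over 24 hours in either class, and few features of the whole matrix did (0.0531% of promoter sums, 0.105% of distal sums and 0.0547% of single regions).

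The cells were ERt2-Ikaros inducible B3 cells, a pre-B line of mouse origin. They carry an added form of Ikaros, a zinc finger factor that drives pre-B differentiation, joined to a hormone-binding part of the estrogen receptor. It moves into the nucleus once 4-hydroxytamoxifen (4OHT) is present and adds to the Ikaros already bound there, so the 0-hour cells are not cells without Ikaros. The 0-hour cells were collected before induction, and the 24-hour cells after exposure to 20 mM 4OHT with another dose given at about 12 hours, so both groups carry the fusion and differ by the drug and the time in culture. Cells were captured in 2 Fluidigm C1 runs per time-point, and neither the labels nor the methods say whether the runs came from separate cultures, so p-values measure the spread between runs. The matrix holds 48 and 47 cells of 0-hour runs 1 and 2 and 60 and 72 cells of 24-hour runs 1 and 2, where the labels list 48, 63, 75 and 73 single cells. There was no arm of B3 cells without the fusion and none with 4OHT's carrier alone among the samples used here.

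The 4 runs summed to between 92639 and 164357 counts in regions. Of 12 B-lineage marker genes 10 had a region, among them Cd79a, Pax5, Ebf1, Igll1 and Vpreb1, while Rag1 and Cd22 had none. Of 8 T cell markers 3 had a region and none a promoter region, of 7 myeloid markers 2 had a region and 1 (Lyz2) a promoter region, of 4 erythroid markers 1, and of 4 fibroblast markers 0. The same well positions were used in several runs (78 positions in more than 1), but no 2 cells had identical values. Promoter regions took 51.0% and 48.5% of the counts at 0 hours and 58.3% and 66.3% at 24 hours. Promoters of replication genes were therefore compared with other promoters, and distal regions with other distal regions.

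Replication of DNA begins when the origin recognition complex (ORC), Cdc6 and Cdt1 load the ring-shaped MCM helicase onto DNA in G1, with geminin (Gmnn) blocking reloading later in the cycle. Cdc45 and the GINS complex then turn the loaded ring into a working helicase. Polymerase alpha with primase lays down primers, polymerases delta and epsilon copy the strands behind a sliding clamp (PCNA) that the RFC complex loads, RPA coats the single strands, and Fen1 and Lig1 join the fragments. Many of these genes are targets of E2F factors, which act at the entry into S phase. In the bone marrow, large pre-B cells divide several times before they exit the cycle as small pre-B cells, and Ikaros is known to take part in that exit.

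Sequence words bound by E2F stood near many of these start sites. In RefSeq promoter windows of 300 bases (GRCm38.p6, 250 before to 50 after the start) at least 1 of 4 E2F words (TTTGGCGC, TTTGCCGC, TTTCGCGC, TTTCCCGC, both strands) was present for 16 of the 36 member genes found in the table (44.4%), against 704 of all 27025 genes (2.60%). The word TTTCCCGC contains the Ikaros core GGGAA on its other strand. The windows of 30 bases shown here come from genes of the helicase, of its loading and of the polymerases, with the E2F word in capitals, each written along the strand on which the word reads.
Mcm3: cgggaaaacttgggaagtTTTGGCGCcaag
Mcm5: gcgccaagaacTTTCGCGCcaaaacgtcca
Mcm6: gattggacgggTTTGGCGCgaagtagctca
Mcm7: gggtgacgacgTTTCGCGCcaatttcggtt
Cdc6: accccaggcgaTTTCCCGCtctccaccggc
Cdt1: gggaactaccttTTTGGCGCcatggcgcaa
Orc1: aggagaaaactTTTCGCGCcactaaccgaa
Pola1: gcgggagtgcaTTTGGCGCcctgtgatgac
Pole2: catgttcgcgaTTTGGCGCcaccgccgacg
They lie at chr1:20820263-20820292, chr8:75109345-75109374, chr1:128359734-128359763, chr5:138171849-138171878, chr11:98908002-98908031, chr8:122568035-122568064, chr4:108579416-108579445, chrX:93632275-93632304 and chr12:69228162-69228191. Of the 9, the Mcm6 window lies wholly inside a member region. The genes Mcm4, Gmnn, Gins1, Gins2, Gins4, Prim2, Pole and Rfc2 are not in this table.

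The same words were counted in shorter windows centred on the open regions, which cover another set of genes. A window of 150 bp around the midpoint held an E2F word in 5 of the 35 member promoter regions (14.3%), those of Gmnn, Mcm2, Mcm6, Pole and Rfc3, against 216 of 8786 promoter regions (2.46%). The ETS word CCGGAAGT was present in 6 (17.1%, against 7.22% of all), the NRF1 word CGCATGCG in 2 (5.71%, against 3.00%), the NFY word CCAAT in 15 (42.9%, against 30.7%) and the Ikaros core GGGAA in 17 (48.6%, against 37.99%). These shares count matches on both strands and describe letters, not bound factors.

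**Figure D1:**
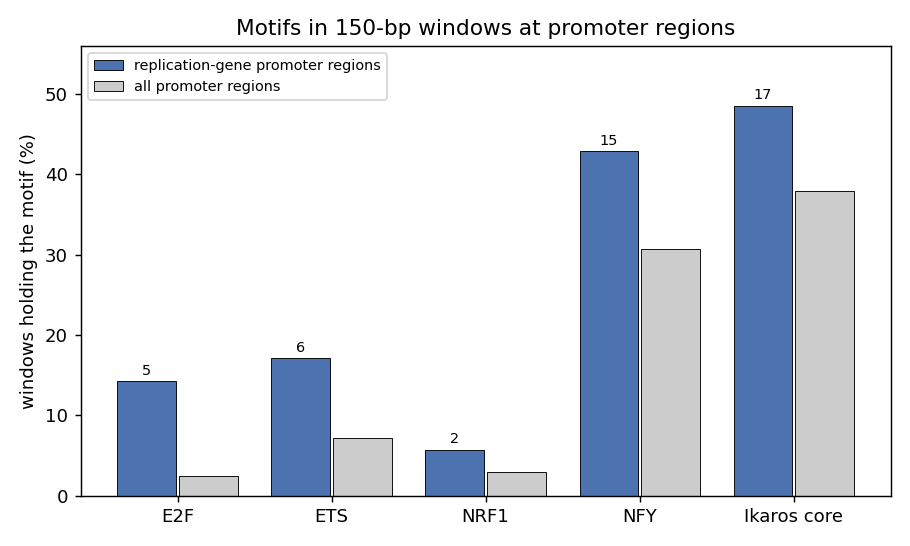
Bars give the percentage of 150-bp windows holding each motif on either strand, for 35 promoter regions of replication genes (blue, number of regions above each bar) and all 8786 promoter regions (grey). E2F words stood in 5 member windows (14.3%) against 2.46% of all, and the Ikaros core in 17 (48.6%) against 37.99%.

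The sequences of 5 open promoter regions free of annotated UTR are shown because their genes include the largest promoter change among genes with signal in at least 20 cells (Rpa2) and the MCM gene with signal in the most cells (Mcm5). Each is written along its gene's strand, with ETS, NRF1 and NFY words (either strand) in capitals.
Rpa2: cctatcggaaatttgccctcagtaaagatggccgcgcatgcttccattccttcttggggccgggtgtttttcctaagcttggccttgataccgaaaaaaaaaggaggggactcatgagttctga
Mcm5: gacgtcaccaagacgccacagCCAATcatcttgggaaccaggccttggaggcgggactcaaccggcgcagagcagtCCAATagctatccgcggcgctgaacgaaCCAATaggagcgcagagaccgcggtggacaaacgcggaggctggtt
Gins4: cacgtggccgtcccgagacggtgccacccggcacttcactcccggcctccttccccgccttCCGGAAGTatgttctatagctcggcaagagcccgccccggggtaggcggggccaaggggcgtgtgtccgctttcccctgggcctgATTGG
Cdt1: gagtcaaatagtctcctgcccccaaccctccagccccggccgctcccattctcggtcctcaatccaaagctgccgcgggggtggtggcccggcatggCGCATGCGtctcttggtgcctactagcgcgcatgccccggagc
Pola1: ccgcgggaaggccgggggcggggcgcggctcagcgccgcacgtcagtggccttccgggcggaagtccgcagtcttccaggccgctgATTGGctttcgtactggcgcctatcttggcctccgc
On mm10 they are chr4:132768153-132768276, chr8:75109411-75109560, chr8:23237701-23237851, chr8:122567807-122567946 and chrX:93632157-93632278. All of them lie upstream of their start sites, and the midpoints are at -117.5, -83.5, -117, -138.5 and -62.5 bp, in the same order. The Mcm5 region holds 3 NFY words, whereas the Rpa2 region holds none of the 5 motifs and the NFY word counted for Rpa2 lies in its 150-bp window outside the region.

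The median width of member promoter regions was 143 bp (147 bp in other promoters), and their median GC content 64.8% (65.7%). Of the 35, 28 (80.0%) lay within 150 bp of the start site that the rule measured from, against 69.5% of other promoter regions. Signal was found in a median of 21 of 227 cells (19 in other promoters), from 6 cells at Fen1 to 72 at Gins2. An opposite-strand start lay within 1 kb of 4 of the 35 (11.4%, against 12.7% of all promoter regions), at Cdc45, Fen1, Orc3 and Pole. Regions nearer a neighbour's start, such as those at Mcm7, Orc1 and Rpa1, were not counted to members. The shares are therefore not a like measure, and how often member starts have an opposite-strand neighbour was not tested. All 46 member regions had 1 copy in the genome.

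Each cell showed few of these promoters. The median cell had signal in 5, 3, 3 and 3 of the 35 member regions in 0-hour runs 1 and 2 and 24-hour runs 1 and 2, and 2, 5, 6 and 8 cells had signal in none. The median number of all promoter regions with signal was 982.5, 517, 724.5 and 755 in the same runs, so the run with the most member promoters per cell was also the deepest.

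The share of promoter counts that replication genes held was close at the 2 time-points. They took 391 of 83856 promoter counts (0.466%) in 0-hour run 1, 206 of 44950 (0.458%) in 0-hour run 2, 300 of 71445 (0.420%) in 24-hour run 1 and 410 of 94628 (0.433%) in 24-hour run 2. The 24-hour runs were both lower than the 0-hour runs, and the ratio of the means was -0.12 on the log2 scale. Its counting error alone, with counts taken as independent, was 0.083 (95% interval -0.28 to 0.046), so the SD of 0.026 between the runs of a time-point understates the error. By run, 48.2% to 58.9% of member promoter values above 0 were 2. Counts are thus not independent, and this counting error may be too small. The ratio was -0.074 with promoters of 2500 bp and -0.20 with equal weight for each cell. No test was made of this sum, and 2 runs against 2 allow no exact p below 0.333. Distal regions gave no such order, with 71, 31, 55 and 33 counts or 0.125%, 0.0935%, 0.148% and 0.0916% of distal counts.

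**Figure D2:**
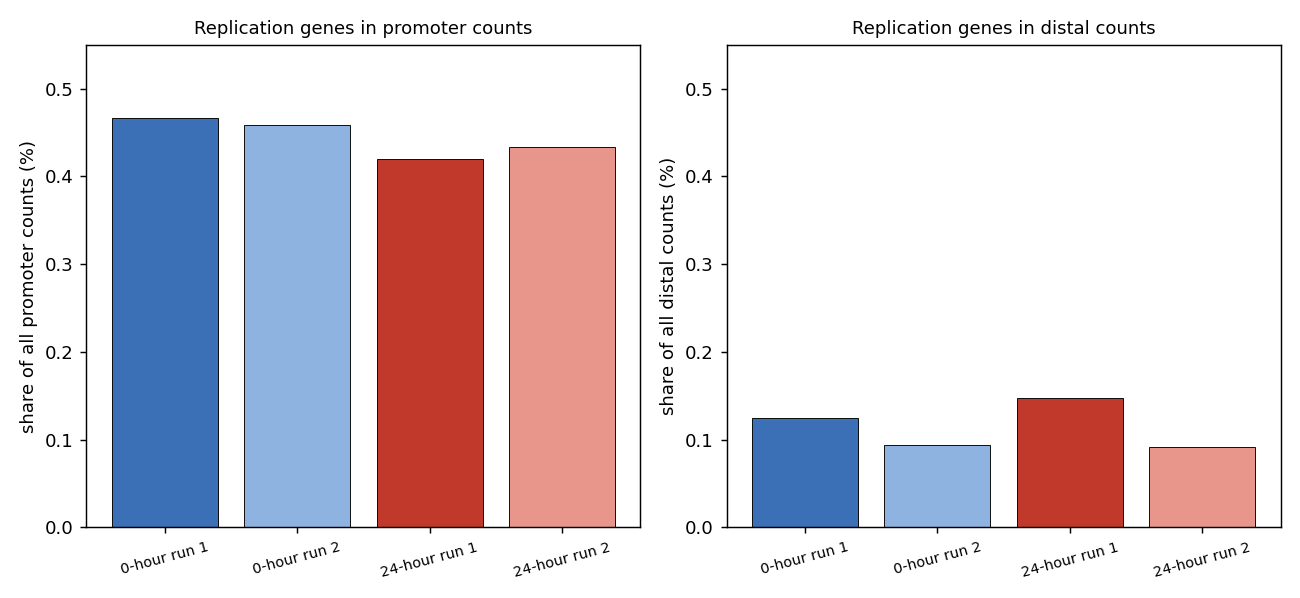
Bars give, for each C1 run, the replication genes' share in percent of all promoter counts (left) and of all distal counts (right), on axes from 0. The promoter share lay at 0.466% and 0.458% before induction and at 0.420% and 0.433% after 24 hours, and the distal shares of the time-points overlapped.

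For each gene the counts of its promoter regions were summed per run, TMM-normalized and tested by the quasi-likelihood method of edgeR, with p-values adjusted after Benjamini and Hochberg over all 7539 genes with a promoter region. None of the 30 member genes passed an adjusted p of 0.05, where 4 of all genes did (0.0531%), and the smallest adjusted p among members was 0.372. At an unadjusted p of 0.05, 1 member gene passed, and 8.18% of all genes. DESeq2 called 0 member genes adjusted (0.0% of all genes) and 1 unadjusted (3.53% of all genes). The log2 change from 0 to 24 hours was above 0 for 14 member genes and below 0 for 16, from -2.14 to 1.78, with a median of -0.17 against 0.05 over all genes. The median standard error was 0.71 on the log2 scale for members and 0.78 for all genes. The time-points did not overlap for 12 member genes, with the 24-hour runs higher for 4 (19.9% of all genes) and lower for 8 (19.4% of all genes). Leaving out 1 run turned the sign or moved the log2 change by over 1.5 times for 28 of the 30 genes, all but Mcm5 and Rpa2.

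Values of single genes are given as TMM-normalized promoter CPM, that is, counts scaled to a fixed total of promoter counts per run, in the order 0-hour run 1, 0-hour run 2, 24-hour run 1, 24-hour run 2. They depend on the width of a gene's regions and are compared between runs rather than between genes.

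Of the 6 subunits of the MCM helicase, Mcm2, Mcm3, Mcm5 and Mcm6 had a promoter region. Mcm5 had 2, and its summed level was 354, 391, 249 and 244. Both 24-hour runs were lower, and the log2 change was -0.58 ± 0.46 (SE, n = 2 runs each, adjusted p = 0.781, edgeR). With promoters limited to 500 bp, which keeps the region nearer the start alone, the change was -0.29. In the test of single regions, where the median of all promoter regions was 0.33, the log2 change was 0.04 for that region and -0.84 for the one at -852.5 bp. Mcm6 had 283, 239, 125 and 221, also with both 24-hour runs lower (-0.58 ± 0.54, but -0.26 without 24-hour run 1 and -1.07 without 24-hour run 2). Mcm3 had 165, 239, 166 and 255, and the time-points overlapped. Mcm2 had 177, 0, 166 and 188, where the 0 in 0-hour run 2 sets its log2 change of 0.78 ± 0.72, which was 0.01 without that run. Together the MCM promoters took 0.0990%, 0.0890%, 0.0714% and 0.0867% of promoter counts.

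Of the origin recognition genes, which mark the origin for MCM loading, Orc2, Orc3 and Orc5 had a promoter region. Orc2 had 153, 326, 166 and 88.5, and its change of -0.86 ± 0.63 (adjusted p = 0.761, edgeR) was the largest towards lower signal among the 21 member genes with signal in at least 20 cells. Its 24-hour run 1 lay between the 0-hour runs, and the change was -0.28 without 0-hour run 2 and -0.42 without 24-hour run 2, but -1.36 without 0-hour run 1 and -1.34 without 24-hour run 1. Orc3 had 82.5, 86.8, 180 and 99.6, higher in both 24-hour runs (0.70 ± 0.78, but 0.23 or 1.08 when 24-hour run 1 or 2 was dropped), and Orc5 had 130, 86.8, 208 and 55.3, with overlapping time-points.

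The loading factors Cdc6 and Cdt1 had changes of opposite sign, neither past the test. Cdc6 had 248, 65.1, 249 and 310 (0.71 ± 0.54, adjusted p = 0.770, edgeR), and the 2 runs numbered 1 were nearly equal. Its change was 0.18 without 0-hour run 2 and 2.08 without 0-hour run 1. Cdt1 had 283, 195, 125 and 155 (-0.79 ± 0.58, adjusted p = 0.762, edgeR), lower in both 24-hour runs, with a change of -0.47 without 0-hour run 1. With regions in at least 10% of cells only, which drops 1 of its 2 regions, the change was -1.64. The share of cells with Cdt1 signal was 31.2%, 10.6%, 8.33% and 12.5% by run, so 0-hour run 2 lay between the 24-hour runs. In the test of single regions, where all promoter regions had a median of 0.33, the 2 Cdt1 regions had log2 changes of -1.22 ± 0.76 (the upstream one printed above) and 0.98 ± 1.06 (348.5 bp into the gene). The inhibitor Gmnn had 236, 65.1, 263 and 144, and its time-points overlapped.

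Among the genes that activate the helicase, Gins2 was the replication gene with signal in the most cells, 25%, 25.5%, 28.3% and 43.1% of the cells by run. With the cells of both runs pooled this was 24 of 95 at 0 hours (25.3%, 95% Clopper-Pearson interval 16.9 to 35.2) and 48 of 132 at 24 hours (36.4%, 28.2 to 45.2), where the intervals cover counting error and not the spread between runs. Its level was 248, 456, 388 and 576, with a change of 0.52 ± 0.42 (adjusted p = 0.795, edgeR) and an approximate 95% interval from -0.32 to 1.35. The 24-hour run 1 lay below 0-hour run 2, and the change was 0.09 without 0-hour run 1 and 0.96 without 0-hour run 2. Gins4 had 165, 391, 180 and 266 (-0.22 ± 0.52), and its 0-hour runs spanned both 24-hour runs. Mcm10, which helps to start the helicase, had 224, 260, 125 and 188 (-0.60 ± 0.57, adjusted p = 0.831, edgeR) and was lower in both 24-hour runs, with a change of -0.35 without 24-hour run 1 and -0.92 without 24-hour run 2. The log2 changes of Gins3 and Cdc45 were 0.02 and 0.30, with signal in 19 and 8 cells.

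All 4 genes of polymerase alpha-primase, the primer-making enzyme, had log2 changes below 0, on few counts, where 47.8% of all genes lay below 0. Pola1, the catalytic subunit, had 106, 108, 13.9 and 122 (-0.59 ± 0.87), so 24-hour run 1 alone lay below the 0-hour runs, and without that run the change was 0.18. The primase genes Prim1 and Prim2 had signal in 7 and 8 cells, with 2, 4, 1 and 1 counts and 5, 3, 2 and 0 counts before normalization. Their changes of -1.88 ± 1.54 and -2.14 ± 1.45 were the lowest of all members and their errors among the widest. Dropping 0-hour run 1 or 2 gave -2.65 or -0.86 for Prim1, and dropping 24-hour run 1 or 2 gave -5.22 or -1.09 for Prim2. Pola2 had 3, 3, 0 and 4 counts. Summed over the 4 genes, the share of promoter counts was 0.0227%, 0.0334%, 0.00560% and 0.0169%, lower in both 24-hour runs, on 19, 15, 4 and 16 counts.

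The polymerase delta genes, which serve mainly the lagging strand, had 3 of 4 changes above 0, where 3933 of all 7539 genes lay above 0. Pold2 had 94.3, 109, 125 and 210, higher in both 24-hour runs (0.75 ± 0.72, adjusted p = 0.835, edgeR), with a change of 0.32 without 24-hour run 2. Pold1, the catalytic subunit, had 318, 65.1, 222 and 166, and Pold3 had 224, 86.8, 263 and 144. In both genes the 0-hour runs lay farther apart than the means of the time-points. The log2 change of Pold4 was 0.52 ± 0.82 and became 1.38 or 0.12 when 0-hour run 1 or 2 was dropped. Of polymerase epsilon, only Pole had a promoter region, with 7, 2, 4 and 3 counts.

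The clamp loader genes Rfc1, Rfc3, Rfc4 and Rfc5 all had log2 changes below 0, from -1.24 to -0.44, where 47.8% of all genes lay below 0. Rfc1 had 5, 2, 5 and 1 counts (-0.44 ± 1.20), and its change turned to 0.39 without 24-hour run 2. Rfc3 had 177, 391, 111 and 210 (-0.72 ± 0.56, adjusted p = 0.772, edgeR), and 24-hour run 2 lay above 0-hour run 1. The change was -0.12 without 0-hour run 2, -0.34 without 24-hour run 1 and about -1.24 to -1.25 without either of the others. Rfc4 had 142, 86.8, 41.6 and 55.3 (-1.24 ± 0.90) on 12, 4, 3 and 5 counts, and Rfc5 236, 195, 97.0 and 188 (-0.58 ± 0.60), both lower in the 24-hour runs. Without 0-hour run 1 the Rfc4 change was -0.81, and the Rfc5 change was -0.22 without 24-hour run 1 and -1.16 without 24-hour run 2. The summed share of the 4 genes in promoter counts was 0.0620% and 0.0734% at 0 hours and 0.0322% and 0.0444% at 24 hours.

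Of the 10 roles with promoter counts, the share was lower in both 24-hour runs for 3 (MCM helicase, polymerase alpha-primase and clamp loader), higher in both for 1 (single-strand binding) and overlapping for 6, where 19.4% of all single genes were lower and 19.9% higher in both. A role sums up to 5 genes, so the shares of single genes are not a like measure. Among the 6 overlapping roles, helicase activation had 0.0775%, 0.129%, 0.0882% and 0.110% of promoter counts. Licensing had 0.0775%, 0.0334%, 0.0644% and 0.0581%, and polymerase delta 0.0751%, 0.0311%, 0.0714% and 0.0624%, so for both the 0-hour runs spanned the 24-hour runs. Origin recognition had 0.0370%, 0.0512%, 0.0560% and 0.0232%, so here the 24-hour runs spanned the 0-hour runs. Pole had 0.00835%, 0.00445%, 0.00560% and 0.00317%, and Fen1 0.00119%, 0.00445%, 0.00280% and 0.00317%.

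**Figure D3:**
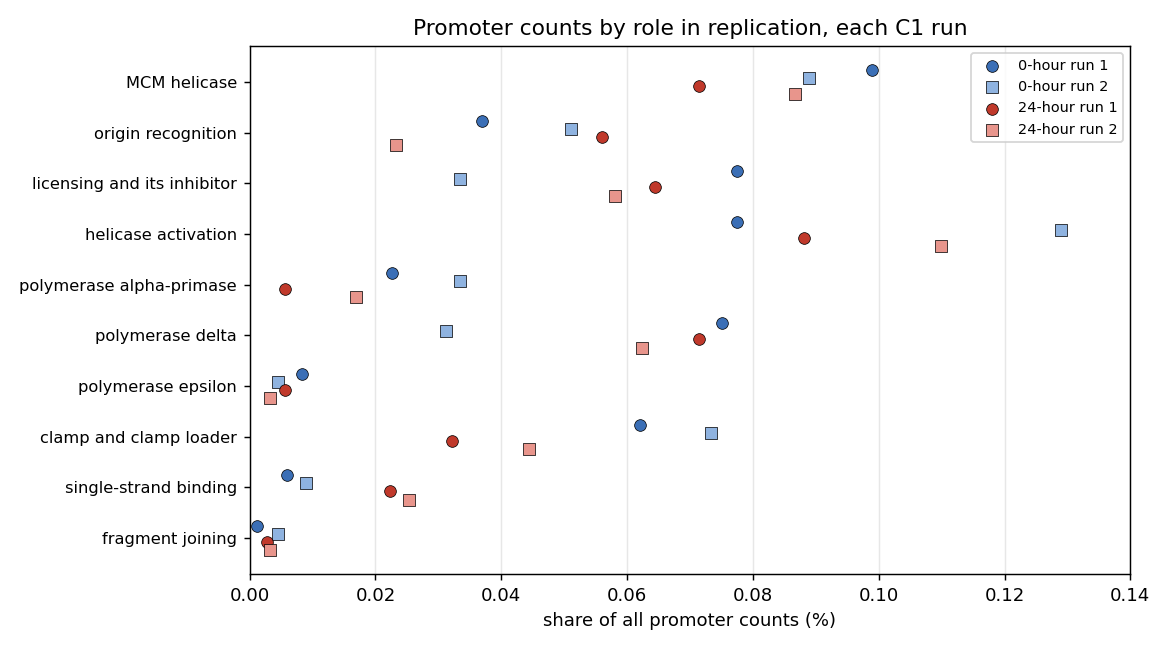
Points give the share of all promoter counts, in percent, of the member genes of each role in each C1 run, where the time-points overlapped for 6 of the 10 roles. The clamp loader genes lay at 0.0620% and 0.0734% at 0 hours and 0.0322% and 0.0444% at 24 hours, and the single-strand binding gene Rpa2 at 0.00596% and 0.00890% against 0.0224% and 0.0254%.

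Rpa2, which encodes a subunit of the single-strand binding complex RPA, was the one member gene with an unadjusted p under 0.05. Its promoter level was 59.0, 86.8, 222 and 266, so the 24-hour runs both exceeded the 0-hour runs. The log2 change was 1.78 ± 0.70 (approximate 95% interval 0.41 to 3.14, edgeR p = 0.0123, adjusted p = 0.372), so it did not pass the test. Signal was found in 6.25%, 8.51%, 16.7% and 20.8% of the cells by run. Leaving out 1 run at a time gave changes from 1.47 to 2.02. Fen1, the flap endonuclease, had 1, 2, 2 and 3 counts in a region 42 bp wide.

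**Figure D4:**
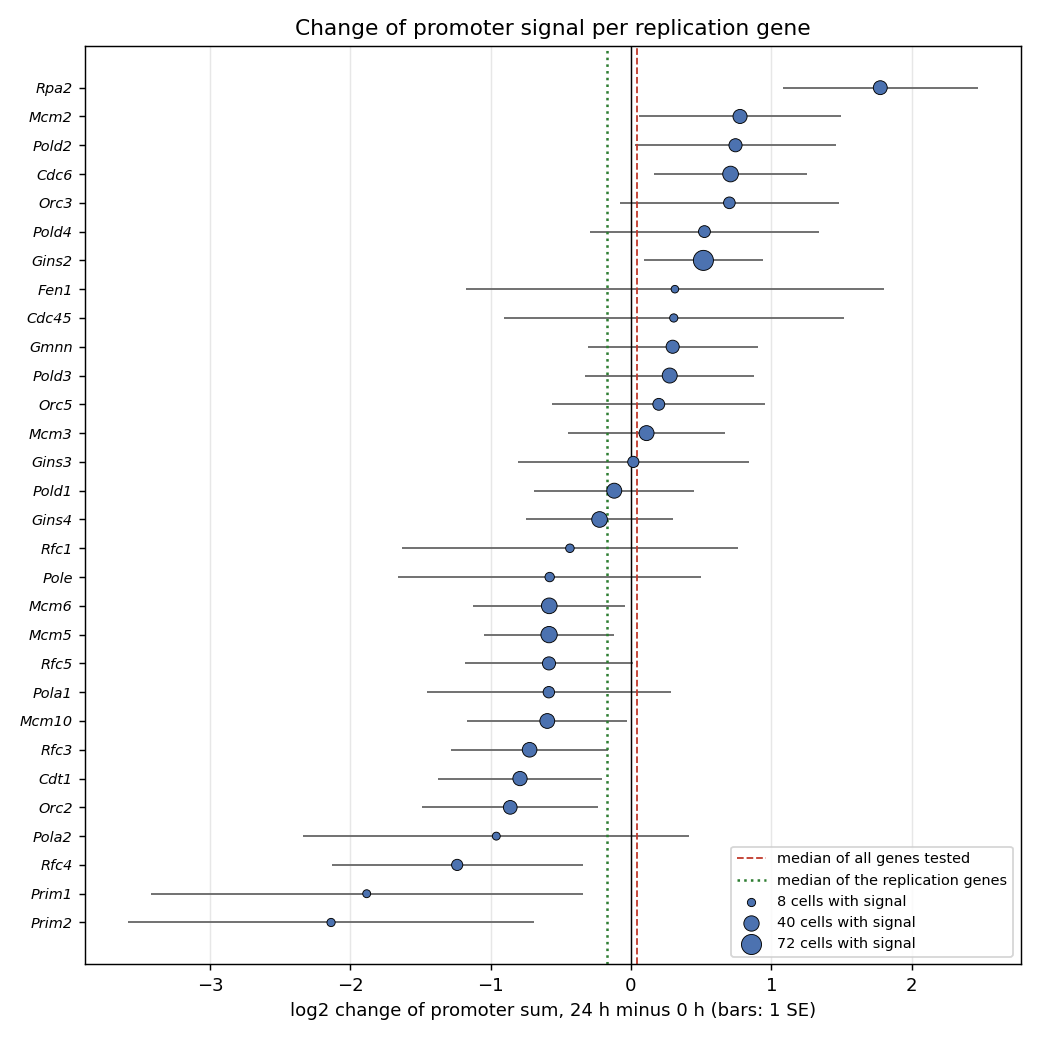
Points give the log2 change of the promoter sum (24 h minus 0 h) with 1 SE for each of 30 genes, sized by the number of cells with signal, and lines mark the medians of the replication genes (-0.17) and of all genes (0.05). Rpa2 lay at 1.78 ± 0.70, the largest in size among genes with signal in at least 20 cells, and none passed an adjusted p of 0.05.

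Some member start sites share a region with a neighbour, and the rule counted that region to the neighbour. These were tested as single regions, where the median log2 change of all promoter regions was 0.33, against 0.05 for promoter sums of all genes. The region 75 bp from the start of Rpa1, another RPA subunit, was nearer the start of Smyd4, and it had a CPM over all regions of 60.6, 20.9, 97.0 and 198 (1.73 ± 0.68, unadjusted p = 0.0138, adjusted p = 0.288, edgeR). The region at Rpa3, nearer Umad1, had 115, 178, 105 and 213 (0.15 ± 0.54). At Gins1 the shared region was nearer Abhd12 and had a log2 change of 1.12 ± 0.59 (adjusted p = 0.453, edgeR), with 308 in 24-hour run 2 against 66.7 to 115 in the other runs. None of the others had an unadjusted p under 0.05 except the region at Pole3, nearer 4933430I17Rik, which had 6 counts, all in 24-hour run 1. An unadjusted p under 0.05 (edgeR) was found for 12.1% of all regions and 9.59% of all promoter regions. The log2 changes of the regions at Mcm7 (nearer Ap4m1) and Orc1 (nearer Prpf38a) were 0.43 ± 0.64 and 0.08 ± 0.63, that at Orc4 (nearer Mbd5) -0.10 ± 0.69, and those at Cdc45 (nearer Ufd1) and Fen1 (nearer Tmem258) 0.46 ± 0.68 and 1.80 ± 1.83.

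Of the 11 member genes without a region of their own, 6 had such a shared region (Mcm7, Orc1, Orc4, Pole3, Rpa1 and Rpa3). The other 5 had no region within 1 kb of their start. For these the nearest region lay 42934 bp away for Mcm4, 133246 bp for Orc6, 13638 bp for Pole2, 5568 bp for Pcna, the sliding clamp, and 1311 bp for Lig1, the DNA ligase. Since regions are bulk peaks with signal in at least 5 cells, a start site without a region is not shown to be closed.

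Distal regions were few, and none of the 6 genes passed the test over 4763 genes with a distal region, where 5 did (0.105%). At an unadjusted p of 0.05, 0 of the 6 member genes passed (13.5% of all genes), and DESeq2 called 0 adjusted (0.042% of all genes) and 0 unadjusted (6.26%). The 24-hour runs both exceeded the 0-hour runs for 2 member genes, Gins1 and Pole4 (19.5% of all genes), and the reverse held for 0 (26.4% of all genes). The median log2 change was 0.29 over the 6 genes and -0.07 over all genes, and leaving out 1 run turned the sign or moved the change by over 1.5 times for each of the 6.

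Gins2 had the most distal signal, in 4 regions 16562 to 49752.5 bp downstream of its start that lie inside the bodies of Gse1 and the gene model Gm20388. Its distal CPM was 791, 404, 884 and 499, and the change was 0.19 ± 0.49 (adjusted p = 0.914, edgeR). The 2 runs numbered 1 lay above the others at both times. As single regions the 2 nearer ones had log2 changes of 0.87 ± 1.17 and 0.34 ± 0.59 and the 2 farther ones -1.37 ± 1.07 and -2.13 ± 1.41. Gins1 had 144, 144, 234 and 176 in 2 regions of its own gene body (0.51 ± 0.82). Rfc2, another clamp loader gene, had 162, 57.6, 130 and 176 at a region 1356 bp from its start (0.39 ± 0.93), and Rfc3 had 54.0, 288, 52.0 and 58.7 (-1.49 ± 1.13), where 0-hour run 2 stood above the other runs. With values reduced to detected or not, the distal Rfc3 change was -0.49. Pole had 5, 0, 1 and 0 counts and Pole4 2, 0, 4 and 2, which gave changes of -1.69 ± 1.86 and 1.82 ± 1.55.

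Tested as single regions, none of the 46 member regions passed an adjusted p of 0.05, where 11 of 20103 regions did (0.0547%). At an unadjusted p under 0.05, 1 of the 46 passed against 12.1% of all regions, that of Rpa2 (2.10 ± 0.69, adjusted p = 0.210, edgeR), and DESeq2 called 0 adjusted (0.0% of all regions) and 1 unadjusted (5.4%). The median change of the 35 member promoter regions was 0.10 on the log2 scale, against 0.33 for all promoter regions in the same fit.

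Members were also split by the E2F word of their RefSeq promoter. Of the 11 with the word and a promoter sum, 5 had a log2 change above 0 and 6 below, with a median of -0.12 and a range from -0.79 to 0.71. Of the 14 without the word in that window, 7 lay on each side with a median of -0.12, from -1.88 to 1.78, and these include Mcm2, whose open promoter window holds one. The 5 members with a promoter sum that are not in the table had 2 changes above 0 and a median of -0.22.

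A list of 62 other replication genes gave 53 with a promoter region, and none of them passed an adjusted p of 0.05, with a smallest adjusted p of 0.192. At an unadjusted p of 0.05, 1 was higher and 4 were lower at 24 hours, or 9.43% of the 53 against 8.18% of all genes, and the median change was 0.11. Of all 7539 genes, 3933 had a change above 0 (median 0.05). The genes of origin firing, such as the kinase subunits Cdc7 and Dbf4, had 9 of 12 changes above 0 (median 0.49), none with an unadjusted p under 0.05. The Dbf4 change of 0.21 ± 0.77 turned to -0.57 without 0-hour run 2. Fork and Okazaki fragment genes had 9 of 14 above 0, nucleotide supply 6 of 8 below 0 (median -0.56), chromatin assembly and maintenance methylation 5 of 9 below 0, and the E2F and pocket proteins 6 of 10 below 0 (median -0.15). Distal sums were available for 18 of the list, and none passed an adjusted p of 0.05. At an unadjusted p of 0.05, 22.2% passed (13.5% of all genes), and the time-points did not overlap for 13 (72.2%, against 45.9% of all genes).

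Among the promoter sums of this list the changes farthest from 0 with signal in at least 20 cells were those of Nasp, Hat1 and E2f3 towards lower and of Top2a, Cdc7 and Tipin towards higher signal. E2f3, a factor that activates S-phase genes, had 413, 629, 194 and 155 (-1.55 ± 0.47, adjusted p = 0.192, edgeR). The histone chaperone gene Nasp had 224, 304, 69.3 and 33.2 (-2.34 ± 0.73, adjusted p = 0.199, edgeR), and Hat1, a histone acetyltransferase gene, 200, 217, 41.6 and 77.5 (-1.75 ± 0.75). With values reduced to detected or not, the Hat1 change was -1.025. The time-points did not overlap in these 3 genes, which were chosen for their size of change, and did not overlap in 21 of the 53 (39.6%, against 39.2% of all genes). Top2a, the topoisomerase that untangles replicated DNA, had 11.8, 65.1, 277 and 111 (2.50 ± 0.90, adjusted p = 0.316, edgeR), and dropping 0-hour run 1 or 2 gave 1.53 or 3.86. Cdc7 had 70.8, 43.4, 97.0 and 244 (1.51 ± 0.79), and Tipin, of the fork protection complex, 94.3, 43.4, 125 and 255 (1.36 ± 0.74), both higher in the 24-hour runs, with changes of 0.68 and 0.75 without 24-hour run 2. The remaining gene with an unadjusted p under 0.05 for its promoter sum was Dscc1, of an alternative clamp loader, with 436, 347, 180 and 111 (-1.46 ± 0.51, adjusted p = 0.301, edgeR), which was named after its values were seen.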

How the data were processed

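scATAC-seq libraries of ERt2-Ikaros B3 cells were mapped by the authors to mm10 with Bowtie2, freed of duplicate fragments with Picard and quantified in peaks called on bulk replicates with HOMER, whose versions are not given in the sources used here. The deposited matrix holds whole-number counts without normalization for 20103 regions and 227 cells. No value is above 2, so strong signal may be capped. Bulk samples were not analysed here.

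Regions were assigned to the closest protein-coding start site (GENCODE vM21, the same build). The unit of replication was the C1 run, so cells of a run were added up, and their sums went into edgeR 4.0.16 under R 4.3.3 (quasi-likelihood, TMM, Benjamini-Hochberg, threshold 0.05), with DESeq2 1.42.0 as an alternative. The SE of a log2 change was taken from its F statistic. No filter beyond the 5 cells per region was used. Intervals of shares of cells (SciPy 1.17.1) cover counting error only, at 95%. Genome copies were counted with BLAST 2.17.0 at 90% identity over 80% of a region.

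The 8 members with promoter signal in most cells, the 5 largest promoter changes in each direction among those with signal in at least 20 cells, the 5 members with distal signal in most cells and the 3 largest distal changes in each direction in at least 10 cells were described run by run; of the other replication genes, the 3 largest changes in each direction. The remaining members are given by name. The members and lists were chosen with earlier results of these data known. Doublets were not called, since each capture site was inspected by eye. Alternatives changed the scaling, filter, tool, start sites, promoter width and runs.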

Additional observations from a re-analysis of the deposited data

How the results depend on the processing

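No member gene was called under any alternative, for promoter and distal sums alike, and 1 member region, that of Rpa2, was called without 24-hour run 1 (0 to 1 member regions over the runs left out). Nasp, of the other replication genes, was also called without that run (-2.90, adjusted p = 0.0386, edgeR). Numbers over all features moved more. For single regions, 11 became 33 with run totals in place of TMM, 6 with the number of cells as offset, 0 with DESeq2, 0 with values reduced to detected or not and 18 for regions in at least 10% of cells. For promoter sums, 4 became 0 with the cell offset, 0 with DESeq2 and 2 with promoters of 2500 bp, and for distal sums, 5 became 0 with run totals, the cell offset, detected values, promoters of 2500 bp or transcript starts and 2 with DESeq2 or the 10% filter. Leaving out single runs gave 1 to 797 regions, 0 to 158 promoter sums and 0 to 297 distal sums. The highest number each time came without 24-hour run 1. In that fit the lone 24-hour run takes its spread from the pair at 0 hours. The fit without 24-hour run 2 has the same form and gave far fewer calls, and the reason for the difference was not tested.

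The labels give both time-points runs 1 and 2 without saying that they are paired, and deviations of same-numbered runs were uncorrelated (-0.014 over promoter sums, -0.0109 over regions). With the run number as a replicate block, 11 regions, 4 promoter sums and 4 distal sums were called, no member among them, and the Pold1 change turned to 0.12.

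The log2 ratio of the members' share of promoter counts was -0.16 for detected values, -0.074 with promoters of 2500 bp and -0.20 with equal weight for each cell, and it stayed below 0 in all alternatives run. That of distal counts ranged from -0.25 to 0.44 over all alternatives, each within 1 SD between runs (0.40) of its value of 0.13. The cell offset moved the median of all genes from 0.05 to -0.11 for promoter sums and from -0.07 to -0.84 for distal sums. It turned the promoter change of Mcm3 (-0.0099) and the distal changes of Gins2 (-0.61), Gins1 (-0.24) and Rfc2 (-0.46), and detected values turned Mcm3 (-0.0089) and distal Gins2 (-0.054) and Rfc2 (-0.061). Leaving out 1 run reversed the change of 12 of the 30 member promoter sums and 4 of the 6 distal sums in at least 1 case. Among the genes that the naming rule picked these were the promoters of Gins4 (-0.79 to 0.44), Mcm3 (-0.22 to 0.38), Pold1 (-0.72 to 1.54), Pold3 (-0.22 to 1.20) and Pola1 (-2.79 to 0.18), and the distal sums of Gins2 (-0.31 to 0.79), Rfc2 (-0.084 to 1.36), Rfc3 (-2.30 to 0.032) and Pole (-4.17 to 2.30). The cause was not tested. Of the 30 promoter sums, 9 had signal in under 20 cells.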
